A study of Homo sapiens with 43 samples.

Results

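LCC3 is 1 of 6 latency-competent cell derivatives (LCC1 to LCC6) of H2087, an established human lung cancer line, and the genes described here are those in which LCC3 stood outside the other 5 derivatives. A gene was a member if its normalized count in LCC3 lay above the highest or below the lowest value of LCC1, LCC2, LCC4, LCC5 and LCC6 in both culture media. Only genes with a mean of at least 50 over the 12 derivative libraries were considered, which left 11167 of the 18085 genes in the tables. Of these, 1781 (15.9%) were members: 820 (7.34%) had LCC3 above the others in both media, 738 (6.61%) had it below in both, and 223 (2.0%) had it above in 1 medium and below in the other. A normalized count is the number of reads of a gene divided by a size factor of the library, so it can be compared between libraries but not between genes of different length.

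The study profiled total RNA of H2087 and of a breast cancer line, with their derivatives, in 31 RNA samples among 43 samples in all. The libraries used here are H2087 parental cells, LCC3, and the other 5 derivatives, each grown for 48 h below confluence in mitogen-low medium (MLM) or mitogen-rich medium (MRM). LCC3 and each other derivative had 1 library per medium, which gives 2 LCC3 libraries and 10 of the others. The parental cells had 2 per medium, 4 in all, and 1 further parental MLM sample is listed without a column of normalized counts. Per the labels, every derivative was recovered from an organ that was BLI-negative, and no genetic change or drug is named for any group. The labels do not say whether LCC3 is 1 clone, nor that libraries of a group were separate cultures. LCC3 therefore has no replicate within a medium. Its difference from the other derivatives is given as a description with no test, since that difference chose the members.

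Epithelial cells are held together by adherens junctions built on cadherins, by tight junctions built on claudins and by desmosomes. Transcription factors of the grainyhead-like and OVOL families keep these genes on, and ESRP proteins direct epithelial splicing, whereas ZEB factors repress the same program. MHC class II molecules present extracellular peptides to helper T cells. Their genes are switched on together by the coactivator CIITA, and the invariant chain CD74 escorts the molecules to the compartment where peptides are loaded. In lung adenocarcinoma, NKX2-1 marks the lineage of the alveolar epithelium, which makes surfactant proteins and napsin A.

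For 5 members to which the results return, the 250 bases upstream of the transcription start are shown 5′ to 3′ on the gene's strand, from RefSeq on build GRCh38.p14. RAB25 (chr1:156060910-156061159, plus strand), MUC1 (chr1:155192916-155193165, minus strand) and DSP (chr6:7541421-7541670, plus strand) are epithelial genes that were low in LCC3. Capitals in them mark the E-box CAGGTG on either strand (CACCTG on the other), the sequence to which ZEB and SNAI factors are known to bind.

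RAB25: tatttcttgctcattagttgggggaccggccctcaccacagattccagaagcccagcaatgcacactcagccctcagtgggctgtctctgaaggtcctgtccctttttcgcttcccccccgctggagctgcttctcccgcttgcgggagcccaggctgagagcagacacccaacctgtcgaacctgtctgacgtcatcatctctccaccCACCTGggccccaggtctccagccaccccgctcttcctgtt

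MUC1: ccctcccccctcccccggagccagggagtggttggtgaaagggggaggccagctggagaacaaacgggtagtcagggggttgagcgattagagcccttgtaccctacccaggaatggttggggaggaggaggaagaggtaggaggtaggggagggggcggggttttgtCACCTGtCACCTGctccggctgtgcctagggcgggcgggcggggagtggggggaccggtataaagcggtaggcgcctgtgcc

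DSP: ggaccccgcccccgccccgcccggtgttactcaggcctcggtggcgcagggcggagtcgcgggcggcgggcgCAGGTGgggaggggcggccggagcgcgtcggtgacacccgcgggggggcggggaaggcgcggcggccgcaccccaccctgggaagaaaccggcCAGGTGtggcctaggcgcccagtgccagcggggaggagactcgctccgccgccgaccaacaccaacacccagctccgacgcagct

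LDHC (chr11:18412068-18412317, plus strand) and GLB1L3 (chr11:134276129-134276378, plus strand) are the members lowest in LCC3 against all other derivatives, and capitals in them mark each CG.

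LDHC: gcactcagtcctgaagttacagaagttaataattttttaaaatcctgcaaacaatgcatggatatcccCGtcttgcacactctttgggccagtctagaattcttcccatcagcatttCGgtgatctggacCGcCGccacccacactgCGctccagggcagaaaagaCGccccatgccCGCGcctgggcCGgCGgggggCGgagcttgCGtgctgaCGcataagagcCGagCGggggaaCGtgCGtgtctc

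GLB1L3: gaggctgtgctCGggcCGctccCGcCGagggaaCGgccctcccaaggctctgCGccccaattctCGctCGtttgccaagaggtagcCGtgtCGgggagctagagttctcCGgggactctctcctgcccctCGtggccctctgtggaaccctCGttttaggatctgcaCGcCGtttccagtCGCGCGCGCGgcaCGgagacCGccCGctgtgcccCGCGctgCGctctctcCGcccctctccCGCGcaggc

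The E-box occurred in 17.5% of 27305 RefSeq windows of this length, and in 15.8% of the windows matched to the 11167 genes considered. Windows were matched for 7 of the 17 epithelial members described below. Of these 7, RAB25 held 1 E-box, MUC1 held 2 and DSP held 2, while CLDN1, CLDN3, CLDN7 and TJP3 held none in this window. Over all measured epithelial markers, members or not, 5 of 14 matched windows (35.7%) held an E-box. CG occurred 17 times upstream of LDHC and 29 times upstream of GLB1L3. The median was 21 over the windows matched to the 11167 genes considered and 11 over all windows. A match is a description of the letters only.

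Libraries held 44.6 to 55.7 M reads in MLM and 12.1 to 20.8 M in MRM, so medium and depth moved together. LCC3 had 44.6 M and 19.2 M. KRT8, an epithelial keratin, stood at 49132 and 55493 in LCC3, and NKX2-1 at 2319 and 4149 in MLM and MRM. Other markers of the labelled lung epithelial origin were near 0 in LCC3, such as GRHL2 (1.28 and 3.10), and 17 of 26 epithelial and 5 of 13 lung markers, NKX2-1 among them, were below the other derivatives. Markers of fibroblasts summed to 332 and 482 in LCC3 against 276 to 963 in the other derivatives, with COL3A1, DCN, LUM and DPT at 0 in both LCC3 libraries. Markers of blood cells summed to 3658 and 5903 against 2621 to 8539, with CD4, MS4A1, TYROBP and HBB at 0. Across genes, the deviation of LCC3 from the mean of the derivatives in MLM correlated with that in MRM at 0.779. The library labelled LCC6 in MRM went against its label: its deviations correlated at 0.553 with LCC5 in MLM and 0.451 with LCC6 in MLM, and at 0.652 with LCC5 in MRM. With LCC6 left out of both media, 2616 genes lay outside the range, 1213 of them above and 1008 below in both media, and 20 epithelial markers were below. The same rule can only gain members when a derivative is left out.

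Most members lay close to the edge of the range, and most of the large differences had LCC3 below the other derivatives. The smaller of the 2 gaps between LCC3 and the nearest other derivative, on log2(normalized count + 1), had a median of 0.0491 among the genes above the range and 0.114 among those below. At least 1.5-fold outside the range in both media lay 21 genes above and 97 below, and at least 2-fold 3 above and 50 below. At the edge, LSM5 was just above the range with a gap of 5.82e-06 and RND3 just failed it at -7.75e-06, while TMPRSS4 stood exactly on the lower edge. Taken in place of LCC3 by the same rule, LCC1 lay outside the rest in 727 genes, LCC2 in 2932, LCC4 in 2540, LCC5 in 448 and LCC6 in 1295. At 2-fold, LCC4 had 100 genes above and 7 below, LCC2 18 and 31, LCC6 0 and 7, LCC1 1 and 0, and LCC5 0 and 1. LCC3 and LCC4 thus differed in the direction of their large offsets, while LCC2 and LCC6 also had more genes below than above.

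**Figure D1:**
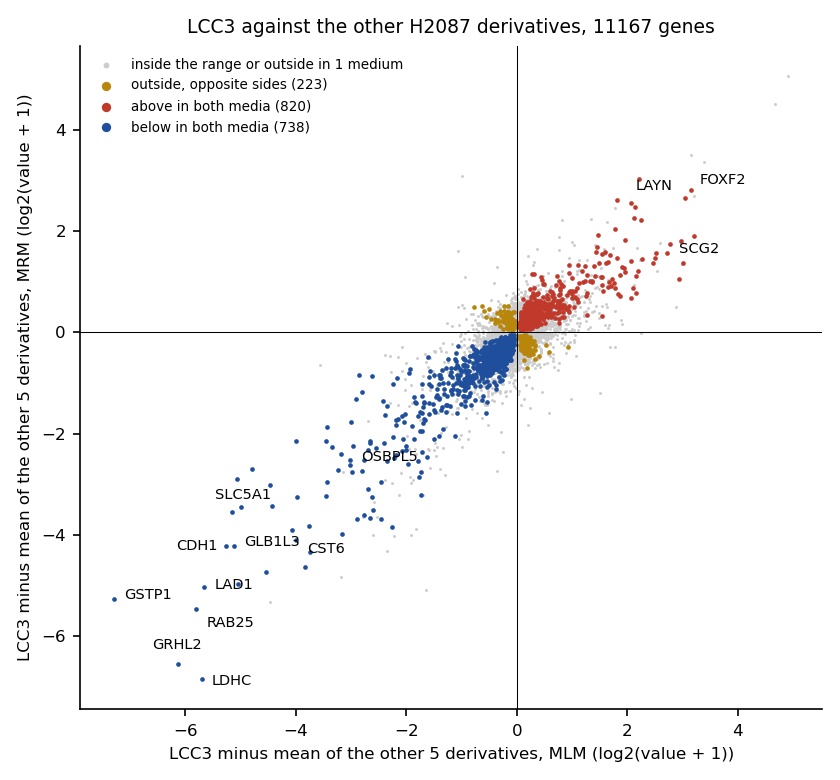
Each of 11167 genes by the difference between LCC3 and the mean of the other 5 derivatives on log2(normalized count + 1), in MLM (horizontal) and MRM (vertical), coloured by membership; no library is averaged within LCC3. The 738 genes below the range reach -7.29 in MLM at GSTP1 and -6.84 in MRM at LDHC, farther from 0 than the 820 genes above it.

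A small set of genes stood so far from the others that the gap to the nearest derivative exceeded the whole log2 range of the other 5 in both media. There were 37 of them (0.331% of 11167), 8 above (0.0716%) and 29 below (0.26%); this criterion was chosen after the values were seen. By the same criterion LCC1 had 1 above and 5 below, LCC2 116 and 124, LCC4 58 and 35, LCC5 0 and 0, and LCC6 1 and 17. Of the 29 below in LCC3, 11 lie on chromosome 11, which holds 648 of the 11128 genes matched to a position. None of the genes below in the other derivatives by this criterion did, but LCC1 and LCC5 had only 5 and 0 such genes. Nothing is read from this comparison. The chromosome as a whole stood high in LCC1, LCC2 and LCC4, and LCC5 and LCC6 were each compared with other derivatives that were low there. The low level of chromosome 11 itself was shared by LCC5 and LCC6, as described below.

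LDHC, the lactate dehydrogenase subunit of the testis, was nearly absent from LCC3 alone. In MLM its normalized count was 1.28 in LCC3 and 102, 103, 154, 137 and 105 in LCC1, LCC2, LCC4, LCC5 and LCC6, with 100.2 and 90.5 in the parental libraries. In MRM it was 0 in LCC3 and 143, 95.4, 123, 96.8 and 116 in the others, with 99.6 and 154 in the parental libraries. The parental libraries lay just below the other derivatives in MLM and overlapped them in MRM, and LCC3 lay far below all of them. The LCC3 values rest on 2 reads and 0 reads: in MLM the nearest derivative was 79.6-fold higher (95% counting interval 22.0 to 657), and in MRM LCC3 was at least 20.5-fold lower than the nearest, taking 3 reads in the library as the floor that a count of 0 allows. The two-sided 95% limit, as used for MLM, puts that bound at 16.7-fold. These intervals and floors, here and below, cover counting error in the LCC3 reads only. They hold the value of the nearest derivative fixed. On log2(normalized count + 1), LCC3 minus the mean of the parental libraries was -5.40 in MLM and -6.96 in MRM, sizes that depend at so few reads on the pseudocount of 1. No test is given here for the genes set apart: they were chosen for extreme LCC3 values and a narrow range of the other 5 derivatives, and those derivatives supply the spread of the fit.

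GLB1L3, a galactosidase-like gene, stood at 5.77 in LCC3 in MLM against 242, 325, 177, 211 and 243 in LCC1, LCC2, LCC4, LCC5 and LCC6. In MRM it stood at 18.6 against 312, 427, 356, 362 and 364. The parental libraries had 156 and 140.5 in MLM and 433 and 373 in MRM, on the side of the other derivatives. The nearest derivative was 30.7-fold higher in MLM (95% counting interval 16.2 to 67.0, from 9 reads in LCC3) and 16.8-fold in MRM (9.61 to 32.5, from 12 reads). OSBPL5, a lipid transfer protein of the oxysterol-binding family, had 129 in LCC3 against 1053, 1192, 900.4, 991 and 1157 in MLM. In MRM it had 139 against 874, 839.6, 774, 866 and 956, with 701 and 678 (MLM) and 1147 and 1163 (MRM) in the parental cells. LCC3 minus the parental mean was -4.46 and -4.36 for GLB1L3 and -2.40 and -3.04 for OSBPL5 in MLM and MRM.

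FIBP, which encodes a protein that binds acidic fibroblast growth factor inside the cell, varied little among the other derivatives. LCC3 had 446 in MLM, and the other derivatives lay between 1183 and 1461 with the parental libraries at 1285 and 1342. In MRM LCC3 had 418, the others 916 to 1211 and the parental libraries 1017 and 1009. On the log2 scale LCC3 minus the parental mean was -1.56 in MLM and -1.27 in MRM. PTCH1, the Hedgehog receptor, had 20.5 in LCC3 against 184, 179, 80.3, 103 and 139 in MLM, and 9.29 against 203, 176, 58.6, 117 and 85.5 in MRM. LCC4 was the lowest of the other derivatives in both media, and the parental libraries (99.1 and 81.6, then 183 and 253) were inside or above their range. TFCP2L1, a transcription factor of epithelia and pluripotent cells, had 56.4 in LCC3 against 167 to 357 in MLM and 34.1 against 101 to 215 in MRM. The parental libraries were above every derivative for this gene, at 511 and 527 and at 471 and 454, and LCC3 minus their mean was -3.18 and -3.72.

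TMC8, a transmembrane channel-like gene linked to zinc transport, stood at 116 in LCC3 against 399.9 to 1113 in MLM and at 139 against 520.0 to 1456 in MRM. TMEM45B had 179 against 593 to 1181 and 588 against 1356 to 2884. CDC42BPG, a kinase bound by CDC42, had 116 against 426 to 812 and 138 against 402 to 1164. In all 3 genes both parental libraries of each medium lay above LCC3. The sorting receptors SORT1 and SORL1 were both in this set: SORT1 had 909 against 1566 to 1992 and 1693 against 2996 to 5199, and SORL1 had 4931 against 7587 to 10609.6 and 6608 against 10456 to 14815. AQP3, a channel for water and glycerol, had 747 against 1542 to 2139 and 1027 against 2262 to 4867. BOK, a BCL2 family member, had 205 against 343 to 541 and 246 against 390.4 to 567. SCEL, sciellin of the cornified envelope, moved with the medium as well: LCC3 had 514 in MLM against 1531 to 3912, and 2162 in MRM against 3635 to 4511. Its parental libraries had 1940.5 and 2002 in MLM and 734 and 775 in MRM, so LCC3 lay below them in MLM and above them in MRM.

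The 8 genes set apart above the others differed less. SCG2, secretogranin II of secretory granules, led with 326 in LCC3 against 62.2, 47.1, 31.5, 70.7 and 33.8 in LCC1, LCC2, LCC4, LCC5 and LCC6 in MLM. In MRM it had 187 against 44.3, 45.5, 54.7, 62.8 and 76.9. The parental libraries were below every derivative, at 17.8 and 21.8 in MLM and 30.0 and 28.4 in MRM, and LCC3 minus their mean was 3.98 and 2.64 on the log2 scale. OTUB2, a deubiquitinase, had 1617 against 576 to 862 in MLM and 965 against 455 to 619 in MRM. NCK2, an adaptor of receptor signalling to actin, had 1356 against 724 to 945 and 1202 against 649 to 753. AIM2, a sensor of cytosolic DNA, had 698 against 441 to 506 and 1050.0 against 723 to 787. For OTUB2, NCK2 and AIM2, LCC3 minus the parental mean was 2.15, 1.33 and 1.63 in MRM and 0.97, 0.39 and 0.44 in MLM. The other 4 of the 8, TXNL4B, PHF20L1, FOXK1 and RBM23, had a smaller gap of 0.137, 0.136, 0.128 and 0.0709.

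**Figure D2:**
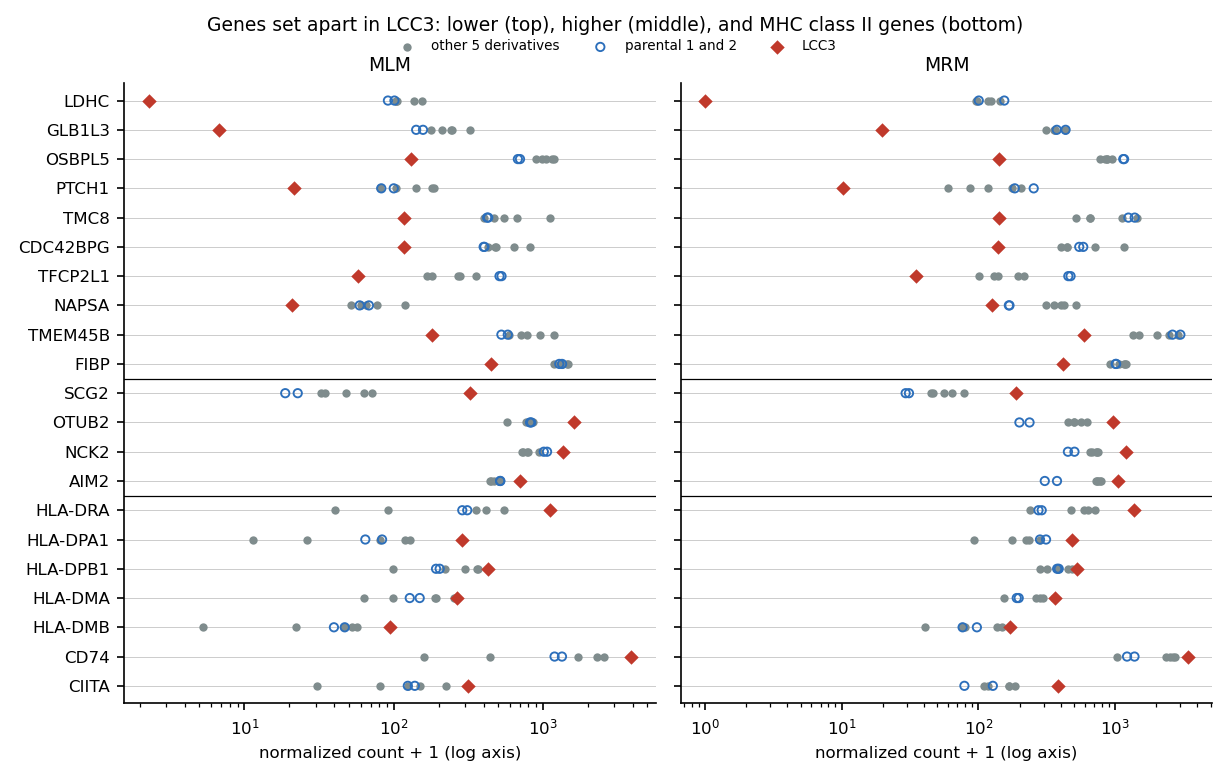
Normalized count plus 1 on a log axis in each library for 10 genes set apart below the other derivatives (top), 4 set apart above them (middle) and 7 MHC class II genes (bottom), in MLM and MRM; diamonds are LCC3, filled circles the other 5 derivatives and open circles the 2 parental libraries, with no averaging. LDHC in LCC3 sits at 1.28 and 0 normalized counts, and the SCG2 diamonds at 326 and 187 lie to the right of all other points.

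Genes with a wider range among the other derivatives were also highest in LCC3. LTBP1, which stores latent TGF-beta in the matrix, had 5329.8 in LCC3 in MLM against 1536, 1371, 753, 2318 and 1363, and 5669 in MRM against 1991, 1506, 1129, 2643 and 1219. LCC5 was the next highest in both media, and the parental libraries were at 854 and 828 and at 331 and 331. By limma LTBP1 was higher than in the parental cells by 2.66 ± 0.53 in MLM (limma adjusted p = 0.0459) and 4.10 ± 0.46 in MRM (adjusted p = 0.00987). Both calls were lost without either parental library (limma adjusted p = 0.0773 to 0.255), and the MLM call also without LCC1, LCC2 or LCC6. Here and for the members below, LCC3 is 1 library and its values and the range of the other derivatives chose the genes, so these p-values are not independent of the choice and support nothing further. LAYN, a hyaluronan receptor, had 225 against 6.77 to 95.8 in MLM and 365 against 22.2 to 153 in MRM. PLA2G4A, the cytosolic phospholipase that releases arachidonic acid, had 3643 against 1205 to 1651 and 3422 against 1124 to 2129. IL1A, an alarmin cytokine, had 194 against 19.5 to 92.9 and 698 against 39.6 to 397. The transcription factor FOXF2 had 224 against 0.512 to 113 and 269 against 8.81 to 136, with LCC2 nearly without reads. The parental libraries were above LCC3 for FOXF2 in MLM (373 and 360.1) and below it in MRM (83.8 and 104).

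Of the 34 lists, epithelial markers had the most genes below the range. Of 27 listed markers 26 were measured, and LCC3 was below the other 5 derivatives in both media in 17 and above in 0. The share of all genes below is 6.61%. The median difference from the mean of the other derivatives was -1.29 in MLM and -1.09 in MRM on the log2 scale, against 0.0139 and 0.00737 over all genes. Without the 2 markers on chromosome 11, the count was 16 of 24. By the same rule LCC4 was above all others in 24 of the 26, LCC2 was below in 2, and LCC1, LCC5 and LCC6 were outside in none. LCC3 and LCC4 thus lay at opposite ends of this list. In bulk RNA, fewer cells that express a gene and less RNA per cell cannot be told apart.

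CDH1, the E-cadherin of adherens junctions, had 19.9 in LCC3 in MLM against 433, 986, 5682, 1701 and 80.0 in LCC1, LCC2, LCC4, LCC5 and LCC6. In MRM it had 146 against 1832, 1035, 15534, 2186 and 2317. LCC6 was near LCC3 in MLM and with the bulk of the derivatives in MRM, and LCC4 was far above all. The parental libraries had 807 and 763 in MLM but 210.3 and 203 in MRM, so in MRM LCC3 was close to the parental cells. GRHL2, a grainyhead-like factor, had 1.28 in LCC3 against 171, 280.2, 1266, 268 and 5.54 in MLM and 3.10 against 320.5, 288, 2153, 204 and 198 in MRM. Each of these LCC3 values rests on 2 reads, and the nearest derivative was 4.32-fold higher in MLM (95% counting interval 1.20 to 35.7) and 64.0-fold in MRM (17.7 to 529). The nearest in MLM, LCC6 at 5.54, also rests on few reads, since 1 read equals 0.615 there. Its counting error is not in the interval, which is therefore too narrow to separate the 2 libraries in MLM. RAB25, an epithelial GTPase of vesicle recycling whose upstream bases are printed above, had 3.20 against 171, 267, 2091, 461 and 14.8 in MLM. In MRM it had 10.8 against 493, 104, 2999, 524 and 458, beside 17.4 and 18.9 in the parental libraries. The splicing regulator ESRP1 had 10.3 against 26.5 to 3339 and 21.7 against 107 to 5111.

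The remaining epithelial members covered a wide span of levels. MUC1, the membrane mucin, had 226 in LCC3 in MLM against 791 to 6556 and 1135 in MRM against 3251 to 27389.8. DSP, the desmosomal plaque protein desmoplakin, was in the set apart from the rest, with 1217 against 2291 to 3572 and 1228 against 2385 to 3495. EPCAM had 2749 against 3709.5 to 11533 and 6501 against 9899 to 35191. The claudins CLDN1 (104 against 137 to 581, and 353 against 483 to 948), CLDN3 (109 against 153 to 434, and 536 against 609.7 to 1696) and CLDN7 (477 against 610.2 to 1944, and 1233 against 1337 to 7559) were all below the range. The membrane proteases ST14 (206 against 916 to 7044, and 723 against 1535 to 26335) and PRSS8 (3.84 against 7.38 to 604, and 20.1 against 106 to 2731) were too. CDH3, the P-cadherin, had 193 against 1272 to 6565 and 1654 against 2987 to 25659. The factor OVOL2 had 0 against 3.69 to 171 and 4.65 against 14.7 to 223, and TJP3, ESRP2 and KRT19 completed the 17. In MLM 1 read equals 0.641 in LCC3, so PRSS8 and OVOL2 rest there on few reads, as do the lowest values of the others. The place of both genes below the range in MLM is therefore uncertain. The 9 measured markers that were not below the range in both media were KRT7, KRT8, KRT18, CLDN4, OCLN, GRHL1, ELF3, EHF and SPINT1.

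**Figure D3:**
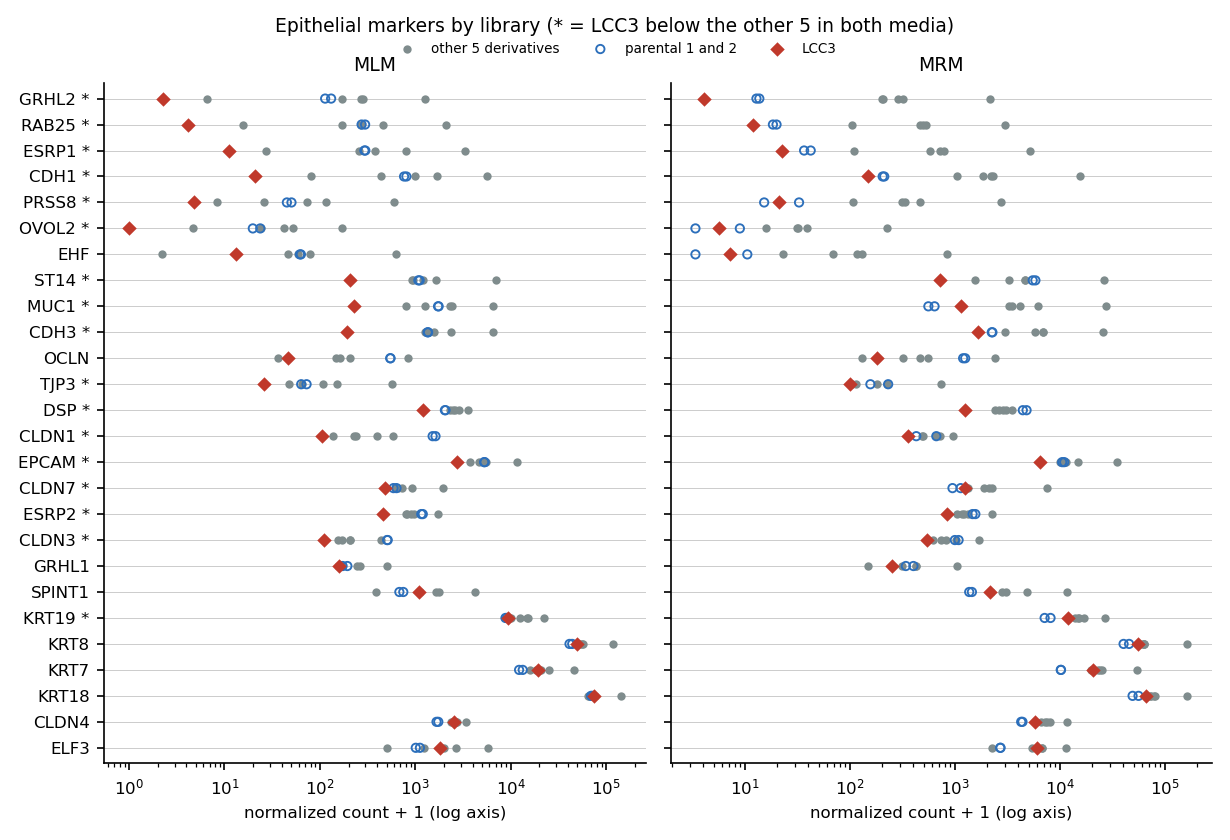
Normalized count plus 1 on a log axis of 26 epithelial markers in each library of MLM (left) and MRM (right), ordered by the mean difference of LCC3 from the other derivatives; diamonds are LCC3, filled circles the other 5 derivatives, open circles the 2 parental libraries, and an asterisk marks the 17 members. In MRM the open circles of CDH1 (210.3 and 203) and RAB25 (17.4 and 18.9) lie beside the LCC3 diamonds, and the rightmost filled circle of 24 markers is LCC4 in both media.

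The parental cells placed these values differently in the 2 media. LCC3 was below both parental libraries in 16 of the 17 epithelial members in MLM and in 12 of 17 in MRM. The median of the 26 markers, as log2 value minus the median of the 8 libraries of the medium, was -1.21 in LCC3 against -0.0236 and -0.0168 in the parental libraries in MLM. In MRM it was -0.76 in LCC3 against -0.733 and -0.787 in the parental libraries, so LCC3 was level with them there. With limma, 1 of 27 tested markers fell in LCC3 against the parental cells in MLM, CLDN1 (-3.91 ± 0.74, adjusted p = 0.0399), and 1 of 27 in MRM, DSP (-1.90 ± 0.21, adjusted p = 0.00987). Both calls were lost without either parental library: no gene was called in MLM, and DSP had a limma adjusted p of 0.0863 and 0.0716. DSP is also 1 of the genes set apart, so its p rests on the spread that chose it and is given only for the count. Of all genes tested, 2.57% fell in MLM and 1.94% in MRM. The other 5 derivatives rose against the parental cells in 8 of 27 markers in MRM and in 1 of 27 in MLM, against 7.57% and 3.81% of all genes tested. That contrast shares the parental libraries with the LCC3 contrast, and the difference between the media was not tested for these counts.

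The mesenchymal list showed no matching shift. Of 16 measured genes, LCC3 was above the others in 2 and below in 1. ZEB1, a repressor of epithelial genes, had 1945 in LCC3 against 1677, 1769, 1031, 1724 and 1805 in MLM and 1727 against 1198, 1174, 518, 1393 and 1446 in MRM. LCC4 had the lowest ZEB1 in both media, and in MLM LCC3 exceeded the parental libraries (1909 and 1909.8) by little. TWIST2 was the other gene above, and TAGLN, an actin-binding protein, was below. The list's median difference was 0.0293 in MLM and -0.00648 in MRM.

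MHC class II was the only 1 of the 34 lists in which every measured gene was above the range. All 7 measured genes of the 12 listed had LCC3 above the other 5 derivatives in both media, so no other derivative could be above the rest. None was below the rest in both media in any of the 7, but LCC5 and LCC6 also deviated. The list's median, as log2 value minus the median of the 8 libraries, was 1.27 in MLM and 0.924 in MRM in LCC3. It was -1.08 and -1.12 in LCC5, and -2.84 and 0.136 in LCC6. The share of all genes above is 7.34%. HLA-DRA, the alpha chain of HLA-DR, had 1114 in LCC3 in MLM against 549.9, 357, 417, 91.2 and 39.4 in LCC1, LCC2, LCC4, LCC5 and LCC6, and 287 and 310.1 in the parental cells. In MRM it had 1372 against 589.8, 718, 471, 238 and 638, and 289 and 274 in the parental cells. LCC5 and LCC6 were the lowest in MLM, and LCC5 in MRM. HLA-DPA1 had 284 against 10.5 to 128 in MLM and 485 against 91.4 to 280.4 in MRM. CD74 had 3915 against 158 to 2581 and 3405 against 1027 to 2761.

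CIITA, the coactivator of these genes, had 315 in LCC3 against 223, 148, 123, 79.8 and 29.5 in MLM and 384 against 165, 166, 117, 109 and 185 in MRM, with 123 and 138 and then 127 and 78.0 in the parental libraries. HLA-DPB1, HLA-DMA and HLA-DMB were closer to the others, and the smallest gap of the 7 was 0.0287, for HLA-DMA (362 against 355 in LCC2 in MRM). LCC3 was above both parental libraries in all 7 genes in each medium. With limma, 0 of 8 tested class II genes passed against the parental cells in MLM and 1 of 9 rose in MRM, CIITA (1.94 ± 0.42, adjusted p = 0.0458), a call lost without either parental library and without LCC1, LCC5 or LCC6 (limma adjusted p = 0.0631 to 0.196). Over all genes 0.761% rose in MLM and 2.51% in MRM. Reads of HLA genes can be split between near-identical copies, so single HLA values are uncertain. HLA class I genes did not share the pattern: 1 of 19 genes of class I and antigen processing, PSMB9, was above the range. Of 36 interferon-stimulated genes 3 were, HERC5, OASL and GBP2.

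Genes of lung identity were partly below the range: 5 of 13 measured were lower in LCC3 and 0 higher, against 6.61% and 7.34% of all genes. By the same rule LCC4 was above in 3 and below in 0, LCC6 above in 1 and below in 2, LCC1 above in 2, and LCC2 below in 1. NKX2-1, the lineage factor, had 2319 in LCC3 against 2958 to 4789 in MLM and 4149 against 4664 to 6892 in MRM. NAPSA, the aspartic protease napsin A, had 19.9 against 51.1 to 118 and 125 against 312 to 514. The surfactant gene SFTPA1 had 7.69 against 41.0 to 145 and 89.8 against 144 to 2413, with LCC2 at 2413; SFTPA2 was also a member, and reads of these near-identical genes cannot be told apart with certainty. HOPX, a homeodomain cofactor of alveolar cells, had 368 against 1363 to 4216 and 638 against 839 to 1417. In MLM all 5 were below both parental libraries, and in MRM 2 were below and 2 above.

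GSTP1, a glutathione transferase, had the largest difference from the mean in MLM but a very wide range among the other derivatives. It had 1.28 in LCC3 in MLM (2 reads) against 140.0, 988, 15.5, 1599 and 1571, and 4469 and 4669 in the parental libraries. In MRM it had 6.19 (4 reads) against 37.5, 794, 25.4, 1357 and 1505, and 607 and 681 in the parental libraries. LCC4 and LCC1 were also low, so LCC3 was the lowest of 3 low derivatives for this gene. The nearest derivative, LCC4, was 12.1-fold higher in MLM (95% counting interval 3.34 to 99.7) and 4.10-fold in MRM (1.60 to 15.1). The limma difference from the parental cells did not pass (adjusted p = 0.0694 in MLM and 0.181 in MRM).

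In the lists of this paragraph the counts are to be read against 7.34% of all genes above the range and 6.61% below. In fatty acid and cholesterol synthesis, 4 of 27 genes were below and 0 above, but without chromosome 11 the count was 1 of 23. By the same rule LCC2 was below in 7 of the 27 and LCC4 above in 19. The neighbouring desaturase genes FADS1, FADS2 and FADS3 on chromosome 11 were all members. FADS2 had 1117 in LCC3 against 8292, 2902, 8861, 5093 and 3556 in MLM and 1742 against 11814, 8854, 15899.7, 7596 and 6962 in MRM. FADS1 (5128 against 5515 to 11532, and 7745 against 9147 to 19215) and FADS3 (539 against 545 to 1055, and 588 against 721 to 1120.0) were closer to the range. FADS3 was no member when values were scaled to the library total or with TMM, and SQLE, squalene epoxidase, was the fourth. Among integrins, laminins and adhesion genes, LCC3 was above in 3 and below in 6 of 29, while LCC4 was above in 8 and below in 0. ITGB8 had 535 in LCC3 against 33.2 to 135 and 268 against 30.8 to 217. ITGA1 had 121 against 180.3 to 599.8 and 124 against 196 to 779. ITGB4, the integrin of hemidesmosomes, had 1999.8 against 2933 to 5299 and 2738 against 3457 to 11320.1. Axon guidance genes were below in 6 of 28 and above in 0, while LCC4 was above in 9 and below in 0. Ribosomal protein genes were above in 6 of 27 and below in 0, with median differences of 0.0755 and 0.299. HOX and patterning genes were above in 6 of 31 and below in 1, while LCC2 was above in 7 and below in 5. No gene of 30 for cell cycle and replication, and none of 14 heat shock genes, was a member.

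The parental libraries were not used to choose members, and they gave 4 patterns. Among the 820 genes above the range, all 4 parental libraries were also above the other derivatives in 73, inside their range in 114, below them in 58 and mixed in 575. Among the 738 below it, the parental libraries were also below in 58, inside in 172, above in 39 and mixed in 469. Over all 11167 genes, all 4 parental libraries were above the other derivatives in 6.92%, below in 5.87% and inside in 19.6%. HTR7, a serotonin receptor, was a gene in which LCC3 sat with the parental cells: 540.2 in LCC3, 464 and 473 in the parental libraries and 60.1 to 114 in the other derivatives in MLM, then 413, 291 and 274, and 63.1 to 229 in MRM. KRT75 was the reverse: 1638 in LCC3, 78.1 and 81.1 in the parental libraries and 271 to 1325 in the other derivatives in MLM, then 4143, 251 and 319, and 471 to 2277 in MRM. KRT75 rose in LCC3 against the parental cells by 4.35 ± 0.78 (limma adjusted p = 0.035) and 3.87 ± 0.82 (adjusted p = 0.0428). Both calls were lost without either parental library and without LCC1 or LCC5, and the MRM call also without LCC6 (limma adjusted p = 0.0571 to 0.219).

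Tested against the parental cells with limma at an adjusted p under 0.05, 95 genes rose and 321 fell in LCC3 in MLM (0.761% and 2.57% of 12480), and 314 rose and 243 fell in MRM (2.51% and 1.94% of 12495). Of the 738 members below the range, 68 fell in MLM (9.21%) and 85 in MRM (11.5%), against 2.1% and 1.85% of the genes that passed the mean of 50. Of the 820 above it, 32 rose in MLM (3.9%) and 72 in MRM (8.78%), against 0.824% and 2.75%. The members were chosen on the same LCC3 values, so nothing is read from these shares. The calls rest on 2 parental libraries: without parental library 1 or 2, the 416 calls in MLM became 0 and 0 and the 557 in MRM became 22 and 7. Without 1 of the other derivatives in turn they ranged from 193 (without LCC1) to 764 (without LCC2) in MLM and from 211 (without LCC5) to 1183 (without LCC4) in MRM, with 705 (without LCC6) in MLM and 363 (without LCC1), 922 (without LCC2) and 326 (without LCC6) in MRM. With values divided by each library's total instead, 102 genes rose and 517 fell in MLM, and 262 rose and 329 fell in MRM, so the balance of directions in MRM turned.

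The difference of LCC3 from the other derivatives did not pass a test of change between the media in any of 12466 genes (limma, 0.0%; 82 had an unadjusted p under 0.05, and edgeR also called 0). This fit did not pair the libraries of each derivative across media, so lasting differences between derivatives stayed in its spread. The count therefore does not show that the offsets are the same in both media. A fit with that pairing is given in the closing section.

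Chromosome 11 held far more members below the range than any other chromosome. Of its 648 measured genes, 152 (23.5%) were below in both media and 3 above, against 585 of 10480 (5.58%) below on all other chromosomes. The median difference of LCC3 from the mean of the other derivatives was -0.297 in MLM and -0.336 in MRM on chromosome 11. On the other 22 chromosomes it ran from -0.0244 to 0.0552 and from -0.0256 to 0.0562. Along the chromosomes, in stretches of 25 neighbouring measured genes, 20 of 25 stretches on chromosome 11 had a median below -0.15 in both media, against 5 of 407 elsewhere. Gene order was taken from RefSeq on GRCh38.p14, which matched 11128 of the 11167 genes.

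The low level of chromosome 11 was shared by 3 derivatives. As the median over its genes of log2 value minus the median of the 8 libraries, LCC3 had -0.228 in MLM and -0.28 in MRM, LCC5 had -0.23 and -0.235, and LCC6 had -0.191 and -0.226. LCC1 had 0.184 and 0.15, LCC2 had 0.137 and 0.117, and LCC4 had 0.165 and 0.174. The parental libraries lay between these groups, at -0.00265 and 0.0169 in MLM and 0.0434 and 0.0568 in MRM. LCC5 was below all others in 70 genes of the chromosome (10.8%, against 1.34% on all other chromosomes) and LCC6 in 59 (9.1% against 4.66%). Without LCC6 the count for LCC3 was 194 of 1008 genes below, and without LCC5 it was 225 of 879. Requiring a gap of at least 1.5-fold left 19 of 97. The median difference of LCC3 from the parental cells on chromosome 11 was -0.258 in MLM and -0.372 in MRM, with 9 (1.39%) and 27 (4.17%) of 648 genes lower by limma at an adjusted p under 0.05, against 2.14% and 1.71% on the other chromosomes.

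**Figure D4:**
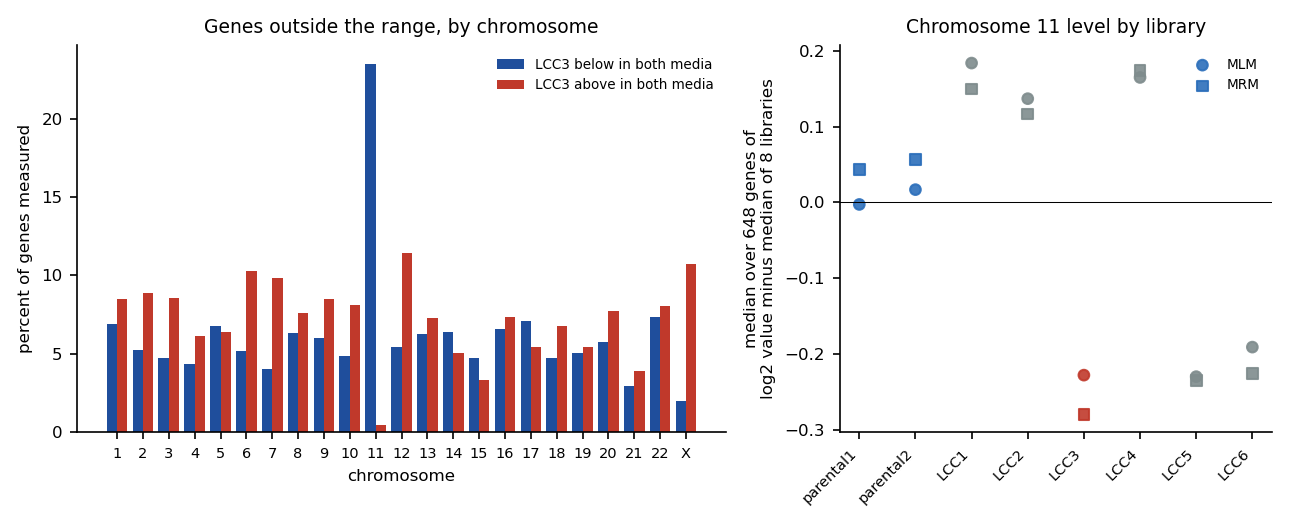
Left, percent of measured genes of each chromosome with LCC3 below (blue) or above (red) the other 5 derivatives in both media; right, the median level of 648 chromosome 11 genes in each library as log2 value minus the median of the 8 libraries of the medium, circles for MLM and squares for MRM. Chromosome 11 stands at 23.5% below, and LCC3, LCC5 and LCC6 lie between -0.191 and -0.28 while LCC1, LCC2 and LCC4 lie between 0.117 and 0.184.

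LCC3 lay farthest above LCC5 and LCC6, in both media, in 2 adjoining stretches. In the stretch from PDHX to PHF21A its level was 0.051 in MLM and -0.19 in MRM, whereas LCC5 had -0.383 and -0.453 and LCC6 had -0.35 and -0.456. In the next stretch, CREB3L1 to FNBP4, LCC3 had 0.166 and -0.0019, against -0.401 and -0.367 in LCC5 and -0.385 and -0.422 in LCC6. In the stretches on either side, CCDC34 to APIP and NUP160 to CCDC86, LCC3 had -0.241 and -0.313 and then -0.269 and -0.333, with LCC5 and LCC6 between -0.245 and -0.407. These regions were picked after the values were seen.

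**Figure D5:**
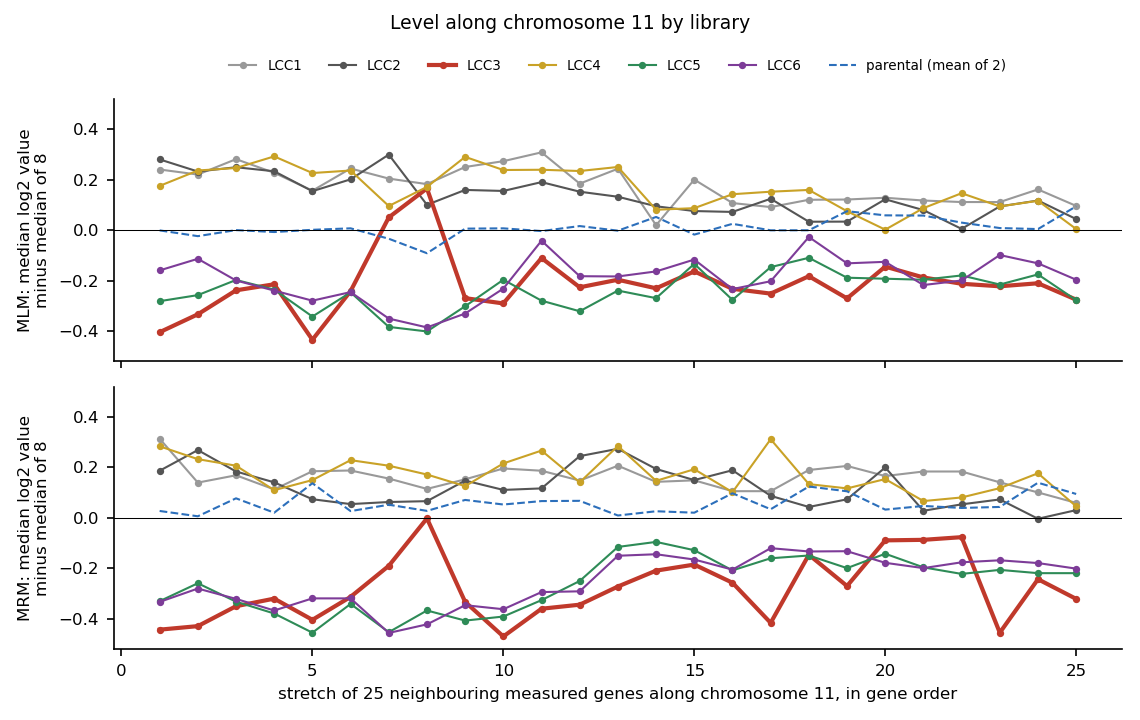
Median level of each stretch of 25 neighbouring measured genes along chromosome 11, as log2 value minus the median of the 8 libraries of the medium, for MLM (top) and MRM (bottom); 1 line per derivative and a dashed line for the mean of the 2 parental libraries. The LCC3 line lies near LCC5 and LCC6 over most of the chromosome and leaves both in stretches 7 and 8, where it reaches 0.166 in MLM and -0.0019 in MRM.

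The neighbours of the 4 chromosome 11 genes described in full above were much less reduced, which did not hold for every gene set apart there. As the difference from the median of the other derivatives, LDHC was at -5.53 in MLM and -6.87 in MRM, its neighbour LDHA at -0.553 and -0.471, and TSG101 on the other side at -0.383 and -0.292. GLB1L3 was at -5.17 and -4.21, with ACAD8 at -0.378 and -0.253 and GLB1L2 at -0.769 and -0.689. OSBPL5 was at -3.01 and -2.63, with CARS at -0.458 and 0.12 and ZNF195 at -0.141 and 0.0403. FIBP was at -1.59 and -1.46, with EFEMP2 at -0.605 and -0.268 and CCDC85B at -0.274 and 0.0244. TMEM45B was at -2.13 and -1.78, but its neighbour BARX2 was at -1.71 and -2.91, lower than TMEM45B in MRM. ARHGAP42, at -0.457 and -0.626, lay close to its neighbour JRKL at -0.489 and -0.501. On other chromosomes, TMC8 on chromosome 17 was at -2.23 in both media with its neighbour TMC6, a second channel-like gene, at -1.21 and -1.34, so this pair was low together. PTCH1 on chromosome 9 was at -2.70 and -3.51 beside FANCC at -0.0281 and -0.0365 and SLC35D2 at 0.107 and 0.0745. Of the epithelial markers, ST14 and EHF lie on chromosome 11, whereas CDH1, GRHL2, RAB25 and MUC1 do not.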

How the data were processed

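Total RNA of H2087 parental cells and their 6 derivatives was sequenced after 48 h in MLM or MRM. The authors deposited 1 table of normalized counts per medium. Per the submitters' processing notes, reads were processed with Bowtie2 2.2.4, HTSeq 0.6.1p1 and DESeq2 1.8.1 on builds hg19 and GRCh37. The deposited values are a signal, read counts divided by 1 size factor per library: 100% of values were whole multiples of 1 read (tolerance 0.01), and median-of-ratios factors computed jointly over both media matched to 3.80e-11. Depths are in the report.

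1 further parental MLM sample is listed but has no column of normalized counts, so it was not analysed here. Membership followed the range rule on deposited values. limma 3.58.1 (R 4.3.3, trend, Benjamini-Hochberg over all genes) was fitted per medium on log2(value + 1) for genes with a mean of at least 10, with the other 5 derivatives as 1 group that supplies most of the spread for LCC3; edgeR 4.0.16 ran on the recovered reads as an alternative. The test was checked on simulated data. The change between media was fitted over the 12 derivative libraries, without LCC number in the main fit. LCC numbers pair the media by their labels. Deviations of same-numbered libraries correlated at 0.73, 0.693, 0.779, 0.778, 0.725 and 0.451 for LCC1 to LCC6. For LCC6 the pairing rests on the label alone, since its MRM library correlated at 0.553 with LCC5 in MLM. Other scalings, pseudocounts, filters and leaving out each library were tried.

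The members, 34 gene lists and 134 named genes were chosen with earlier results of these data known. The named genes were the 15 farthest from the others per direction, up to 4 per list and 6 per direction and parental position; other list members and the genes set apart were named after their values were seen. p-values measure only the spread between these libraries, which may be technical.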

Additional observations from a re-analysis of the deposited data

Results flagged for a closer look

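Among the 5 other derivatives of each medium, the highest or lowest library was checked for a gap to the next that exceeded Dixon's 95% critical value, for 82 genes whose names stand in the report and both media. Of 164 groups 46 stood out, 41 of them through LCC4. The rate of 1 in 20 that chance would flag assumes normal and independent groups. These were untransformed values of genes picked from the report, many of which move together, so no excess over chance is read from the count. These are libraries against which LCC3 was compared, and the part of LCC4 in the epithelial ranges is given by the values.

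In the cadherins, LCC4 was far above the others in MLM and MRM with 5682 and 15534 for CDH1 and 6565 and 25659 for CDH3. The same held for the claudins CLDN7 (1944 and 7559) and, in MLM, CLDN3 (434), and for OCLN (836 and 2372) and TJP3 (570.1 and 731). EPCAM stood at 11533 and 35191 and MUC1 at 6556 and 27390. The regulators of the epithelial state showed it too: GRHL2 (1266 and 2153), OVOL2 (171 and 223), EHF (634 and 842), ESRP1 (3339 and 5111) and ESRP2 (1718 and 2261). RAB25 had 2091 and 2999, ST14 had 7044 and 26335, and PRSS8 had 604 and 2731. The keratins KRT8 (118075 and 163026) and KRT18 (143323 and 162987) stood out in both media, KRT7 (54260.0) and KRT19 (26901) in MRM, and SPINT1 (11676) in MRM. ZEB1 in LCC4 stood apart in the low direction in MLM, at 1031.

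Outside the epithelial list, LCC4 stood apart for SFTPA2 in MLM (102) and SORT1 in MRM (5199). LCC2 stood apart in MRM for SFTPA1 (2413), SFTPA2 (936) and ITGA1 (779), LCC1 for OASL in MRM (184), and LCC5 for CD74 in MRM, as the lowest (1027).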

How the results depend on the processing

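The members rest on 1 LCC3 library per medium, and most lay near the edge of the range. Asking for a gap of at least 1.5-fold left 118 genes, 21 above and 97 below, with 19 on chromosome 11 and 10 epithelial markers. The balance of directions moved with the scaling. Against 820 above and 738 below, scaling to the library total gave 1057 and 646, and TMM gave 900 and 703. Of the 738, 614 and 693 were kept. Below on chromosome 11 were 129 and 147 genes, against 152, and the epithelial markers stayed at 17. Leaving out each other derivative can only widen the set: it gave 2107 to 2616 genes outside, 930 to 1213 above, 877 to 1018 below, 152 to 225 below on chromosome 11 and 17 to 20 epithelial markers. Genes set apart numbered 37, or 64 to 111 without 1 derivative; of the 37, 32 remained under library-total scaling, 34 with TMM and 35 with a pseudocount of 10, settings chosen after seeing the data. Against the parental cells, limma calls of LCC3 ranged from 0 to 764 in MLM and from 7 to 1183 in MRM when 1 library was left out, and those of the other derivatives from 0 to 2094 and from 64 to 2000. Without the filter on low values there were 349 calls of LCC3 in MRM and 44 of a change between media; the cause was not tested. With LCC number as a replicate block, the change between media still had 0 calls, with 433 genes at an unadjusted p under 0.05. A pseudocount of 10 moved the difference of LCC3 from the other derivatives in 8 of 134 named genes, to -3.57 for LDHC and -3.83 for GLB1L3, and none of the settings reversed a named gene. Few reads limit the values of LDHC, GRHL2 and GSTP1, at 0 to 4 reads in LCC3, among others such as SFTPA2, at 1 read in MLM.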
